A study of Mus musculus with 4 samples.

Results

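Sox1, Pax6, Nes, Otx2, Gli3, Zbtb16, Msi2 and Meis1 are genes that regulate or mark neural progenitor cells. Their 8 loci were chosen by gene name and not by a rule on the measured values, though earlier results of these data were known. Each was taken as the gene's span on mouse genome build mm9 with 20 kb added on each side. Cut into tiles of 5 kb, the loci covered 270 tiles, of which 260 had enough input reads to be measured, among 476819 such tiles on chromosomes 1 to 19 and X. The measured quantity was 5-hydroxymethylcytosine (5hmC), an oxidised form of the methylated DNA base 5-methylcytosine. It was read by hMeDIP-seq, in which denatured DNA fragments are pulled down with a 5hmC antibody and sequenced beside the unselected input DNA.

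The study compared mouse embryonic stem cells (ESC) with neural progenitor cells (NPC) made from them, and asked how the genome-wide distribution of 5hmC differs between the 2 cell types. Both came from the 46C line of strain 129/Ola, and neither received an siRNA or shRNA. The ESC were grown in medium with 10% serum and 1000 U/ml of leukemia inhibitory factor. The NPC were the rosette-like, Sox1-GFP-positive cells present on day 9 of monolayer differentiation in N2B27 medium. The 46C line carries a GFP reporter inserted at a Sox1 allele, so the coding part of Sox1 is altered on that allele in both cell types. There were 4 libraries, 1 per group: 5hmC and input of ESC, and 5hmC and input of NPC. Barcoded DNA of both cell types, about 4 µg of each, was pooled before denaturation, so that both were precipitated in the same tube. No expression was measured, so the identity of the cells could not be checked by marker genes.

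The libraries held 7123491 distinct reads for ESC 5hmC, 5059243 for ESC input, 1742680 for NPC 5hmC and 6588254 for NPC input. Reads of a library with the same position and strand were counted as 1 distinct read. Dividing 5hmC by input reads gave 1.408 genome-wide in ESC and 0.2645 in NPC, a NPC/ESC ratio of 0.188 (95% interval 0.1875 to 0.1882). Below, the level of a locus is its 5hmC per input divided by this genome-wide value of the same cell type, so a level of 1 is the genome average. The NPC/ESC ratio is the 5hmC per input of NPC over that of ESC and is not divided by anything else. With 1 library per group there is no replicate error and no test. All intervals are 95% intervals of counting error only, and a difference called beyond counting error may still lie within the variation between cultures.

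5hmC is made from 5-methylcytosine by the TET enzymes. In many tissues it lies in the bodies of genes and at distal regulatory elements, whereas CpG-rich promoters usually lack both it and its precursor. It is abundant in neurons and is also present in ESC. Sox1, Pax6 and Otx2 encode transcription factors of the early neural plate and forebrain, and Otx2 is also made in ESC that are leaving the naive state. Gli3 is a zinc finger effector of Hedgehog signalling that acts mainly as a repressor. Zbtb16 (PLZF) is a zinc finger repressor made in neural rosettes, and Meis1 is a homeodomain cofactor of Hox and Pbx proteins. Msi2 encodes the RNA-binding protein Musashi-2, and Nes encodes nestin, the intermediate filament protein of neural progenitors.

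TET enzymes act chiefly on cytosine in CG pairs, so the CG content of the promoters is shown first. Promoter sequences from RefSeq on build GRCm38.p6 matched 7 of the 8 genes; no entry was found for Zbtb16. The 250 bases before the first listed start are given for Sox1 (chr8:12395269-12395518, plus strand), Gli3 (chr13:15463473-15463722, plus strand), Msi2 (chr11:88718278-88718527, minus strand) and Otx2 (chr14:48667645-48667894, minus strand), 5′ to 3′, with every CG in capitals. These 4 were picked because they span the range of CG content among the matched genes.
Sox1: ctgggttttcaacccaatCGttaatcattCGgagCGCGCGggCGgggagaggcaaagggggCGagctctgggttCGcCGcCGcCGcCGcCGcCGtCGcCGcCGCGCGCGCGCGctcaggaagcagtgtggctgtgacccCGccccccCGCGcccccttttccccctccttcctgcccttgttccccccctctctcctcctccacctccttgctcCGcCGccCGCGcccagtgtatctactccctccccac
Gli3: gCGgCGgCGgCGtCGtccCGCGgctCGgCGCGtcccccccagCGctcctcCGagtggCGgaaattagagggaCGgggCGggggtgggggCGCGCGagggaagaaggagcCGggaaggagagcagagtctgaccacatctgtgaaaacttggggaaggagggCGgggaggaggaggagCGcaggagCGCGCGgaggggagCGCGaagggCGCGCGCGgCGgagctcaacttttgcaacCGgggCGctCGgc
Msi2: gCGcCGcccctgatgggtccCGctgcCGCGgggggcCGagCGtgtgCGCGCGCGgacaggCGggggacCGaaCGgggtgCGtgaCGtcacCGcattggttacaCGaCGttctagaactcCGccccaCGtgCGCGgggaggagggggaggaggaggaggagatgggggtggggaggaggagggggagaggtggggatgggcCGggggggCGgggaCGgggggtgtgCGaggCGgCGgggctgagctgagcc
Otx2: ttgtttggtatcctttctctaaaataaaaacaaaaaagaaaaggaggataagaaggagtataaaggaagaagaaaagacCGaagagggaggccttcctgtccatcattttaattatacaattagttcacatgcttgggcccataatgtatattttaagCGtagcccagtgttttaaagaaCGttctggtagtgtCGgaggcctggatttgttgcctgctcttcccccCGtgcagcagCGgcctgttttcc

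The motif CG reads the same on both strands. The Sox1 sequence holds 29 CG, a count reached by 6.78% of the 32851 promoters in the table, whose median is 6. The Msi2 sequence also holds 29, and the Gli3 sequence holds 34, a count reached by 3.525% of promoters. The first listed Otx2 start has 6, which 50.35% of promoters reach. Pax6 and Nes have 15 each (27.3% of promoters) and Meis1 has 13 (31.5%).

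At the 5′ ends of the spans 5hmC was not distinguishable from the genome average in either cell type. Summed over the 7 loci with a known strand, the 2.5 kb centred on the 5′ end held 64 ESC 5hmC reads over 51 input reads and 14 NPC 5hmC reads over 70 input reads. That is an ESC level of 0.891 (0.607 to 1.31) and an NPC level of 0.756 (0.393 to 1.355). The adjoining 2.5 kb inside the genes had an ESC level of 2.215 (1.55 to 3.215) and an NPC level of 2.62 (1.66 to 4.08). The intervals of the 2 windows do not overlap in either cell type. The NPC value inside the genes leaned on Nes. The first 3.17 kb of the Nes span held 21 NPC 5hmC reads and its 5′ window 4, beside 36 in the adjoining window of all 7 loci. The sums also count Sox1, whose exact place on mm9 is uncertain, as given below. On the upstream side the summed ESC level was also higher, 2.61 (1.775 to 3.94) at 5 kb from the 5′ end. The summed NPC level there was 1.63 (0.977 to 2.65). Single loci were shallow at the 5′ end, with 2 to 16 reads in each input, and did not all go one way. In ESC the 5′ window stood at 0.258 of the span at Nes (0.0644 to 0.925), with 5 reads over 10, but at 6.11 times the span at Gli3 (1.29 to 57.5), with 10 reads over 2. In NPC the Pax6 window had 0 reads over 16, at most 0.831 of the span. No other locus with a strand had a 5′ window that differed from its span beyond counting error.

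Summed over the 8 loci, the 4 libraries held 7573 ESC 5hmC, 3498 ESC input, 1865 NPC 5hmC and 4505 NPC input reads. The loci lay above the genome average in both cell types, with an ESC level of 1.54 (1.48 to 1.60) and an NPC level of 1.565 (1.48 to 1.65). Their summed NPC/ESC ratio was 0.191 (0.179 to 0.2045), which includes the genome-wide ratio. Msi2 alone gave 50.9% of the ESC 5hmC reads, so the sum follows Msi2. The medians over the 8 loci were 1.40 for the ESC level, 1.73 for the NPC level and 0.221 for the ratio. All 8 ratios lay below 1, as did that of the genome, so 5hmC per input was lower in the NPC at every locus. Relative to the genome-wide ratio they separated into 3 kinds. The Sox1 and Gli3 intervals lay above it, the Msi2 interval lay below it, and the other 5 included it. The Sox1 call rests on a single tile, and the Msi2 call depends on the background, as given with each locus. The grouping of the other loci and the place of the sum depend on the background too. With it taken off both cell types, as given with the alternatives, the genome-wide ratio was 0.0950, and no intervals were computed. The sum (0.133), Nes (0.153), Otx2 (0.1865), Zbtb16 (0.160) and Meis1 (0.141) then lay above that ratio, as Sox1 and Gli3 still did, and Pax6 (0.0717) lay below it.

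**Figure D1:**
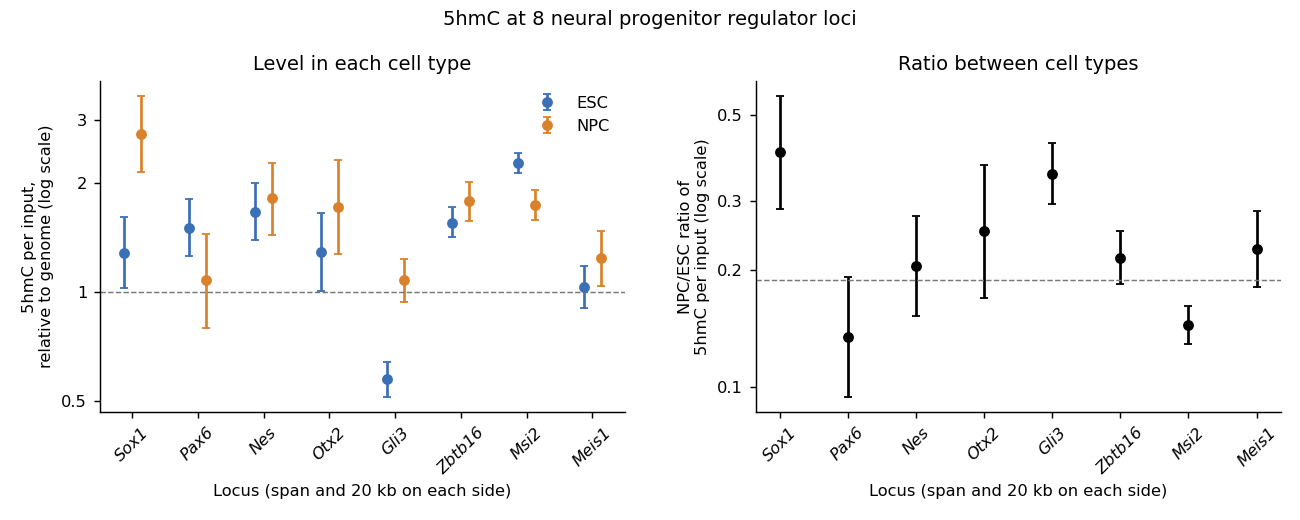
Left, the level of 5hmC per input relative to the genome (log scale) at each locus in ESC and NPC, with the genome average at 1. Right, the NPC/ESC ratio of 5hmC per input (log scale) with the genome-wide ratio of 0.188 as the dashed line. Points are 1 library pair each and bars are 95% counting intervals. Sox1 and Gli3 sit above the dashed line and Msi2 sits below it.

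Ordered by ESC level, the loci ran from Gli3 (0.575) over Meis1 (1.03), Sox1 and Otx2 (both 1.29), Pax6 (1.51), Zbtb16 (1.56) and Nes (1.67) to Msi2 (2.27). Only the steps from Gli3 to Meis1 (1.79 times, 1.51 to 2.14) and from Nes to Msi2 (1.36 times, 1.13 to 1.64) exceeded counting error between neighbours. By NPC level the order was Gli3, Pax6, Meis1, Otx2, Msi2, Zbtb16, Nes and Sox1, and the last step alone, from Nes to Sox1, exceeded counting error (1.51 times, 1.08 to 2.11). By NPC/ESC ratio it was Pax6, Msi2, Nes, Zbtb16, Meis1, Otx2, Gli3 and Sox1, with only the step from Msi2 to Nes beyond counting error (1.42 times, 1.05 to 1.93).

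Tiles were scored as enriched when they held at least 10 distinct 5hmC reads and at least 2 times as many as the input of the same cell type after scaling to depth, a rule of size and not a test. In ESC 74 of the 260 tiles of the loci were enriched (28.5%), beside 10.6% of all measured tiles of the genome. In NPC 57 were enriched (21.9%), beside 5.82% of the genome. Enrichment in both cell types was found in 25 tiles (9.62%, genome 2.18%) and in either of them in 106 tiles (40.8%, genome 14.2%). Over the 8 loci summed, the share of enriched tiles was thus larger than that of the genome in both cell types. Msi2 alone gave 41 of the 74 tiles enriched in ESC, 22 of the 57 in NPC and 49 of the 106 in either, so these sums lean on Msi2. At the other loci the ESC share ran from 0% at Gli3, the only one below the genome, to 40.0% at Nes. Their NPC share ran from 7.14% at Pax6 to 33.3% at Sox1 and Zbtb16. Tiles enriched in ESC occurred at 7 of the loci, all but Gli3, and tiles enriched in NPC at all 8.

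Among the 106 tiles, 93 (87.7%) were at least 2-fold lower in NPC per input, close to the 84.8% of all enriched tiles of the genome. None was at least 2-fold higher in NPC, beside 1.02% of the genome's. Measured against the genome-wide ratio, 28 tiles (26.4%) lay at least 2-fold below it, beside 41.9% in the genome, and 22 (20.8%) lay at least 2-fold above it, beside 21.0%. Fewer of the loci's tiles were therefore far below the genome-wide ratio than of the genome's, and the share far above it was near the background. The split depended on the pseudocount of 0.5 reads. With 5 reads, 4 tiles (4.12%) lay below and 34 (35.1%) above, beside 14.6% and 33.6% in the genome. The loci thus still had the smaller share below, and the share above stayed near that of the genome.

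Each locus was also set beside the genome windows of its own length that had a similar ESC level, at most 25% above or 20% below its own. The Sox1 ratio of 0.400 stood at the 99.6th percentile of 8714 such windows of 45 kb, whose median was 0.154. A single tile held 49.6% of the NPC 5hmC reads of the Sox1 locus. Without it, an alternative chosen after the values were seen, the Sox1 ratio was 0.258. The windows (95th percentile 0.278) kept their own top tiles and were matched to the whole locus, so this value cannot be placed among them. Zbtb16, at 0.215, stood at the 96.5th percentile of 1915 windows of 225 kb with a median of 0.1375. Gli3, with a higher ratio of 0.353, stood only at the 83.9th percentile among the windows of 305 kb, since those as poor in ESC 5hmC as Gli3 had a median ratio of 0.2875. Msi2, the locus with a ratio below that of the genome, stood at the 85.4th percentile of 397 windows of 420 kb (median 0.119). The percentiles of Otx2, Nes, Meis1 and Pax6 were 91.1, 89.0, 81.4 and 45.45. Set beside windows alike in ESC, 7 of the 8 loci thus had ratios in the upper part of the range, and Pax6 was near the middle. This did not hold among all windows of the same length, whatever their ESC level. There the ratio percentiles were 71.4 for Sox1, 66.2 for Gli3, 48.75 for Otx2 and 43.2 for Meis1. Those of Zbtb16, Nes, Msi2 and Pax6 were 41.3, 38.5, 17.5 and 17.2.

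**Figure D2:**
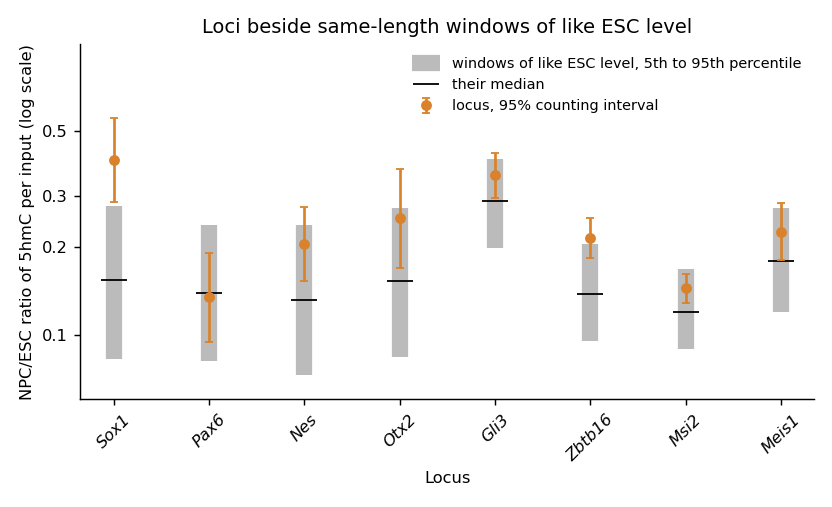
NPC/ESC ratio of 5hmC per input (log scale) of each locus, with its 95% counting interval, beside genome windows of the same length and a similar ESC level. Grey bars run from the 5th to the 95th percentile of those windows and black lines are their medians. The points of Sox1 and Zbtb16 lie above the grey bars, though the interval of Zbtb16 reaches into its bar. Pax6 lies near the median of its windows.

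Sox1 is among the earliest genes to mark neuroectoderm, and the NPC were described as positive for a reporter at this gene. Its locus (span chr8:12395200-12400200, plus strand) held 230 ESC 5hmC reads over 127 input reads and 121 NPC 5hmC reads over 167 input reads. The ESC level was 1.29 (1.03 to 1.61) and the NPC level 2.74 (2.15 to 3.48), the highest NPC level of the 8. The NPC/ESC ratio was 0.400 (0.287 to 0.557), above the genome-wide ratio. All of the NPC signal lay outside the gene. The 5 kb span held 9 ESC 5hmC reads over 15 input reads and 0 NPC 5hmC reads over 19 input reads, which allows an NPC level of up to 0.810. Relative to its flanks the span was at 0.304 (0.114 to 0.771) for ESC and at 0 (upper limit 0.270) for NPC, so it was the lower part in both cell types. The part of the reporter allele in these counts was not tested; the span had input reads in both cell types.

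The flanks of Sox1 carried the difference. The upstream 20 kb had a level of 2.12 in ESC and 4.16 in NPC (2.97 to 5.86), and the downstream 20 kb 0.8455 in ESC and 2.15 in NPC (1.46 to 3.14). A single tile, chr8:12375001-12380000, centred 17.7 kb upstream of the 5′ end, held 53 ESC 5hmC reads over 17 and 60 NPC 5hmC reads over 21. Its NPC level was 10.8 (6.48 to 18.7), and its NPC/ESC ratio was 0.916 (0.407 to 2.04). The tile held 49.6% of the NPC 5hmC reads of the locus, and 11.7% of its NPC 5hmC reads were on the plus strand, against 41.5% of its ESC 5hmC reads. Over the whole locus the plus strand held 30.6% of NPC 5hmC reads (22.5% to 39.6%). The part of this strand imbalance in the result was not tested.

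Without that tile, an alternative chosen after the values were seen, the NPC level of Sox1 was 1.55 (1.13 to 2.10) and the ratio 0.258 (0.173 to 0.383), an interval that includes the genome-wide ratio. Its ESC level was then 1.13 (0.886 to 1.44). A second rise lay downstream, in the tile 12.3 kb from the 5′ end, with 25 ESC 5hmC reads over 14 and 23 NPC 5hmC reads over 15. There the NPC level was 5.80 and the ratio 0.859 (0.308 to 2.39). The tile centred 7.7 kb upstream went the other way, with 27 over 5 reads in ESC, a level of 3.835, and 7 over 19 in NPC. The only other RefSeq gene within 20 kb was Sox1ot, a long non-coding RNA that overlaps Sox1.

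Pax6 encodes a paired-domain and homeodomain factor of radial glia and of the eye. Its locus (span chr2:105509000-105538000, plus strand) held 391 ESC 5hmC reads over 184 and 59 NPC 5hmC reads over 206. The ESC level was 1.51 (1.26 to 1.81), or 1.14 (0.994 to 1.32) with flanks of 50 kb, while the NPC level of 1.08 (0.797 to 1.45) was not distinguishable from the genome average. The ratio of 0.135 (0.0945 to 0.191) was the lowest of the 8, though its interval includes the genome-wide ratio. In ESC the span exceeded its flanks 1.74 times (1.20 to 2.52), with 213 reads over 75 inside and 178 over 109 outside. In NPC the same comparison gave 1.37 (0.737 to 2.56), within counting error.

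Within Pax6 the tile 3.5 kb inside the gene was enriched in both cell types, with 58 ESC 5hmC reads over 13 and 10 NPC 5hmC reads over 18, levels of 3.17 and 2.10. The tile 23.5 kb inside the gene, near its 3′ end, was the highest in ESC, with 45 reads over 7 and a level of 4.57 (2.04 to 12.0). In NPC it held 3 reads over 19, giving a ratio of 0.0246 (0.00400 to 0.121). The tile 6.5 kb upstream was likewise high in ESC, with 67 reads over 15, and held 5 over 20 in NPC, a ratio of 0.0560 (0.0146 to 0.191). Enrichment was thus found at 4 of the 14 tiles of the locus for ESC (28.6%, genome 10.6%) and at 1 for NPC (7.14%, genome 5.82%). The minimum of 10 reads is harder to reach in the shallower NPC 5hmC library, so these counts do not compare the cell types directly. The long non-coding genes Pax6os1 and Paupar and part of Elp4, a subunit gene of the Elongator complex, also lie in the flanks in RefSeq.

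Otx2 encodes a homeodomain factor that patterns the forebrain and midbrain. Its locus (span chr14:49277000-49288000, minus strand) held 189 ESC 5hmC reads over 104 and 68 NPC 5hmC reads over 149. Its ESC level was 1.29 (1.01 to 1.66), the NPC level 1.725 (1.28 to 2.31) and the ratio 0.251 (0.170 to 0.371). In NPC the gene was poorer in 5hmC than its 20 kb flanks, with 7 reads over 38 in the span and 61 over 111 in the flanks, a quotient of 0.335 (0.1196 to 0.824). In ESC the quotient was 0.706 (0.384 to 1.31), which is within counting error of 1. With flanks of 50 kb these calls changed places, to 0.441 in NPC (0.162 to 1.04) and 0.506 in ESC (0.2895 to 0.895). Without the tile with most NPC reads, neither level was distinguishable from the genome average, at 1.325 in NPC (0.933 to 1.85) and 1.24 in ESC (0.958 to 1.605).

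The highest NPC tile of Otx2 was chr14:49290001-49295000, centred 4.5 kb upstream, with 20 ESC 5hmC reads over 7 and 20 NPC 5hmC reads over 12. Its NPC level was 6.30 (2.93 to 14.1) and its ratio 0.583 (0.160 to 2.03). The tile 19.5 kb upstream was the highest in ESC, with 26 reads over 6 and a level of 3.078 (1.24 to 9.14), and held 4 over 16 in NPC. At the other end, 30.5 kb from the 5′ end and past the gene, ESC had 26 reads over 14 and NPC 0 over 16, a ratio of at most 0.173. The tile 4.5 kb upstream was the only tile enriched in NPC among the 11 of the locus (9.09%, genome 5.82%). RefSeq places the non-coding genes Otx2os1 and Gm35766 within the flanks.

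Nes encodes nestin, a filament protein used as a progenitor marker. Its locus (span chr3:87775000-87784500, plus strand) held 409 ESC 5hmC reads over 174 and 115 NPC 5hmC reads over 239. The ESC level was 1.67 (1.395 to 2.005), the NPC level 1.82 (1.44 to 2.28), and the ratio was 0.205 (0.152 to 0.275). The span and its 20 kb flanks did not differ beyond counting error in either cell type, whereas with flanks of 50 kb the NPC span was higher, at 1.74 times (1.055 to 2.82). Within the span 5hmC was concentrated toward the 5′ side. When the span was cut into 3 equal parts, the first held 34 ESC 5hmC reads over 10 and 21 NPC 5hmC reads over 20, and the last 22 over 16 and 8 over 27. In NPC the first exceeded the last 3.54 times (1.19 to 11.1), and in ESC 2.47 times (0.862 to 7.24), within counting error.

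Beyond the 3′ end of Nes, tiles differed in how far NPC lay below ESC. The tile centred 12.5 kb from the 5′ end, just outside the span, was the highest in NPC, with 67 ESC 5hmC reads over 27 and 28 NPC 5hmC reads over 23. Its NPC level was 4.60 (2.56 to 8.37) and its ratio 0.491 (0.228 to 1.06). The tile 22.5 kb from the 5′ end was as rich in ESC, with 56 reads over 15, but held 3 over 28 in NPC, a ratio of 0.0287 (0.00516 to 0.116). The intervals of these 2 ratios do not overlap, and the tile between them had a ratio of 0.173 (0.0701 to 0.423). RefSeq lists Crabp2, a retinoic acid-binding protein gene, and Bcan, the gene of the brain matrix proteoglycan brevican, in the flanks, so the tiles around Nes are not only its own.

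**Figure D3:**
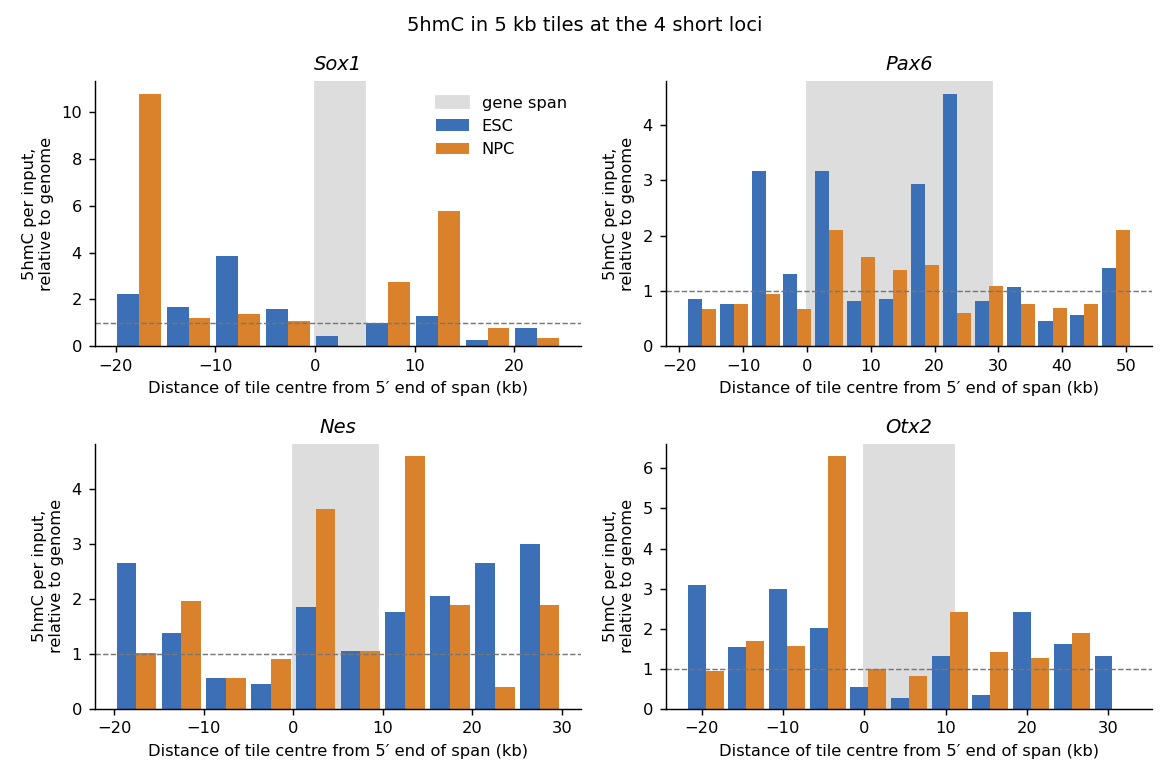
Level of 5hmC per input relative to the genome in each 5 kb tile of the 4 short loci, against the distance of the tile's centre from the 5′ end of the span (kb). Blue bars are ESC, orange bars are NPC, the grey area is the gene span and the dashed line is the genome average. At Sox1 the NPC signal stands in the tiles 17.7 kb upstream and 12.3 kb downstream, and the tile of the gene holds no NPC read.

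Gli3 was the locus poorest in ESC 5hmC. Its locus (span chr13:15555000-15822000, plus strand) held 563 ESC 5hmC reads over 695 and 269 NPC 5hmC reads over 941. The ESC level of 0.575 (0.514 to 0.644) was the only one below the genome average. The NPC level was 1.08 (0.940 to 1.24), at the genome average, and the ratio was 0.353 (0.295 to 0.422). The genome average is above the median window of 305 kb, whose level was 0.691 in ESC and 0.899 in NPC. Among all windows of that length Gli3 stood at the 43.4th percentile in ESC and at the 73.7th in NPC. No tile of Gli3 was enriched in ESC (genome 10.6%), while 7 of its 61 tiles were enriched in NPC (11.5%, genome 5.82%). All 7 lay inside the gene, as did 53 of the 61 tiles. The tile 82.5 kb inside the gene was the highest in NPC, with 11 ESC 5hmC reads over 10 and 17 NPC 5hmC reads over 16, an NPC level of 4.02 (1.91 to 8.495) and a ratio of 0.966 (0.281 to 3.31). The tile 22.5 kb inside had 11 over 12 and 14 over 14 reads, a ratio of 1.09 (0.315 to 3.78). Tiles with so few reads cannot be ranked against each other.

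Inside Gli3 the NPC level was higher than in the 20 kb next to it. In NPC the span had 256 5hmC reads over 838 and the flanks 13 over 103, levels of 1.155 and 0.477, so the span exceeded its flanks 2.42 times (1.33 to 4.78). In ESC the same quotient was 1.096 (0.755 to 1.595), with levels of 0.581 and 0.530. The NPC/ESC ratio was 0.373 in the span and 0.169 in the flanks, a quotient of 2.21 (1.105 to 4.42). With flanks of 50 kb the NPC quotient was 1.27 (0.925 to 1.765), so it rested on the nearer flanks. Along the gene, 13 sections of about 20 kb had ESC levels from 0.247 to 0.867 and NPC levels from 0.511 to 1.84. The 3 equal parts of the gene had ratios of 0.368, 0.405 and 0.341 from 5′ to 3′, which do not differ beyond counting error. The higher ratio of Gli3 was thus spread over the gene, unlike that of Sox1.

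Zbtb16 was 1 of the 2 loci, with Sox1, whose ratio lay above the 95th percentile of windows alike in ESC. For Zbtb16 that percentile was 0.206, a value its counting interval includes. Its locus (span chr9:48462000-48645000, strand not given in the tables used, so parts are named by coordinate) held 1389 ESC 5hmC reads over 633 and 388 NPC 5hmC reads over 822. The ESC level was 1.56 (1.42 to 1.715), the NPC level 1.78 (1.58 to 2.02), and the ratio was 0.215 (0.184 to 0.251). Enrichment was found at 13 of its 45 tiles for ESC (28.9%, genome 10.6%) and at 15 for NPC (33.3%, genome 5.82%). Span and flanks stood in opposite order in the 2 cell types. In ESC the span had 1090 reads over 538 and the flanks 299 over 95, a quotient of 0.644 (0.494 to 0.833). In NPC they had 341 over 676 and 47 over 146, a quotient of 1.57 (1.09 to 2.28). The NPC/ESC ratio was 0.249 in the span and 0.102 in the flanks, a quotient of 2.43 (1.58 to 3.76). With flanks of 50 kb the ESC quotient was 0.938 (0.778 to 1.13), so the lower level of the ESC span held only against the nearer flanks.

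Inside Zbtb16 both cell types had the same shape, with high ends and a low middle. Cut into 3 equal parts by coordinate, the ESC levels were 1.66, 0.8545 and 1.85 and the NPC levels 2.20, 1.30 and 2.24. The lowest-coordinate part exceeded the middle by 1.94 times (1.49 to 2.54) for ESC and by 1.69 times (1.20 to 2.39) for NPC. Over 9 sections of about 20 kb the NPC/ESC ratio stayed between 0.223 and 0.323, so the cell types differed by a similar factor along the gene. The highest NPC tile, 10.5 kb inside the low-coordinate end, had 59 ESC 5hmC reads over 20 and 28 NPC 5hmC reads over 19, an NPC level of 5.57 (3.003 to 10.6) and a ratio of 0.4996 (0.215 to 1.17). The adjoining tile, 5.5 kb inside, had 21 over 10 and 1 over 21, a ratio of 0.0227. The predicted gene Gm32280 lies within 20 kb in RefSeq.

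Meis1 lay near the genome average in both cell types. That average is above the median window of 180 kb, whose level was 0.664 in ESC and 0.898 in NPC. Among all windows of that length Meis1 stood at the 67.2nd percentile in ESC and at the 85.3rd in NPC. Its locus (span chr11:18780000-18919000, minus strand) held 545 ESC 5hmC reads over 375 and 170 NPC 5hmC reads over 517. The ESC level was 1.03 (0.903 to 1.18), the NPC level 1.24 (1.04 to 1.48), and the ratio was 0.226 (0.181 to 0.283). The NPC level was not distinguishable from the average with flanks of 50 kb (1.099, 0.933 to 1.29), or, in alternatives chosen after the values were seen, without its top tile (1.17, 0.9685 to 1.40) and with chromosome 11 alone as the reference (1.175, 0.982 to 1.40). That last reference put the ESC level below the average, at 0.849 (0.743 to 0.971). The gene exceeded its flanks in both cell types, by 1.615 times (1.11 to 2.34) among ESC reads and by 1.735 times (1.04 to 2.995) among NPC reads. The NPC/ESC ratios of span and flanks were alike, 0.229 and 0.213.

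Within Meis1 the NPC signal was lowest in the middle. In 3 equal parts from 5′ to 3′, ESC levels were 1.21, 1.24 and 0.871, and NPC levels were 1.46, 0.966 and 1.69. The last NPC part exceeded the middle 1.75 times (1.04 to 2.95) but not the first (1.16 times, 0.727 to 1.84). In ESC the last part differed from neither the middle (0.704, 0.483 to 1.03) nor the first (0.717, 0.488 to 1.05) beyond counting error. The final section, centred 127.4 kb from the 5′ end, had 47 ESC 5hmC reads over 44 and 33 NPC 5hmC reads over 59, a ratio of 0.524 (0.277 to 0.987). The tile 106.5 kb inside the gene was the highest in ESC, with 28 reads over 7, and held 0 over 14 in NPC, a ratio of at most 0.105. The tile 131.5 kb inside had 7 over 9 in ESC and 15 over 15 in NPC, a ratio of 1.29 (0.323 to 5.23). In ESC the plus strand held 57.25% of 5hmC reads and 43.5% of input reads at this locus; its part in these values was not tested.

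Msi2 was the longest locus and the richest in ESC 5hmC. It (span chr11:88152000-88532000, minus strand) held 3857 ESC 5hmC reads over 1206 and 675 NPC 5hmC reads over 1464. The ESC level of 2.27 (2.13 to 2.425) stood at the 98.0th percentile of genome windows of its length, and the NPC level of 1.74 (1.59 to 1.91) at the 99.0th. The ratio was 0.144 (0.129 to 0.161), below the genome-wide ratio. With chromosome 11 alone as the reference, chosen after the values were seen, the ESC level was 1.87 and the NPC level 1.65, and the ratio of that chromosome was 0.1635. With a background taken off both cell types, as given with the alternatives, the Msi2 ratio was 0.104 and the genome-wide ratio 0.0950, so that Msi2 no longer lay below it. Enrichment was found at 41 of its 74 measured tiles for ESC (55.4%, genome 10.6%) and at 22 for NPC (29.7%, genome 5.82%). A further 10 tiles, chr11:88410001-88460000, had at most 3 input reads each over both cell types and were left out. Together they held 13 ESC 5hmC reads, 0 ESC input reads, 1 NPC 5hmC read and 3 NPC input reads. Span and flanks did not differ beyond counting error in either cell type.

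Along Msi2, ESC 5hmC was broadly high and NPC 5hmC had 2 peaks. From 5′ to 3′, the 3 equal parts of the gene had ESC levels of 2.504, 2.26 and 2.12 and NPC levels of 1.52, 1.89 and 1.78. The sections centred 250 kb and 310 kb from the 5′ end had NPC levels of 3.355 (2.35 to 4.78) and 3.46 (2.502 to 4.78), while the other sections with reads had NPC levels from 0.885 to 2.55. The ratios there were 0.334 (0.207 to 0.540) and 0.305 (0.191 to 0.486), above the genome-wide ratio, against 0.109 (0.0630 to 0.186) and 0.110 (0.0646 to 0.187) in the 2 sections between them. So a locus with a low ratio held 2 sections of high ratio, picked after their values were seen. Of the 76 NPC 5hmC reads of the section at 310 kb, 42 lay in a single tile, chr11:88225001-88230000. Its ratio without that tile was not computed. The section at 230 kb had an NPC level of 2.55 (1.78 to 3.62), an interval that overlaps those of both peaks.

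The tile 304.5 kb inside Msi2 was the highest in NPC, with 62 ESC 5hmC reads over 13 and 42 NPC 5hmC reads over 20, an NPC level of 7.94 (4.56 to 14.3) and a ratio of 0.440. The highest ESC tile, 199.5 kb inside, had 78 reads over 6, a level of 9.23 (4.06 to 25.9), and 7 over 25 in NPC, a ratio of 0.0215. The tile 329.5 kb inside had 40 over 11 in ESC and 0 over 24 in NPC, a ratio of at most 0.0580. RefSeq places the microRNA gene Mir378b within 20 kb of Msi2 or inside it, beside a pseudogene and the non-coding genes 0610039H22Rik and C030037D09Rik.

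**Figure D4:**
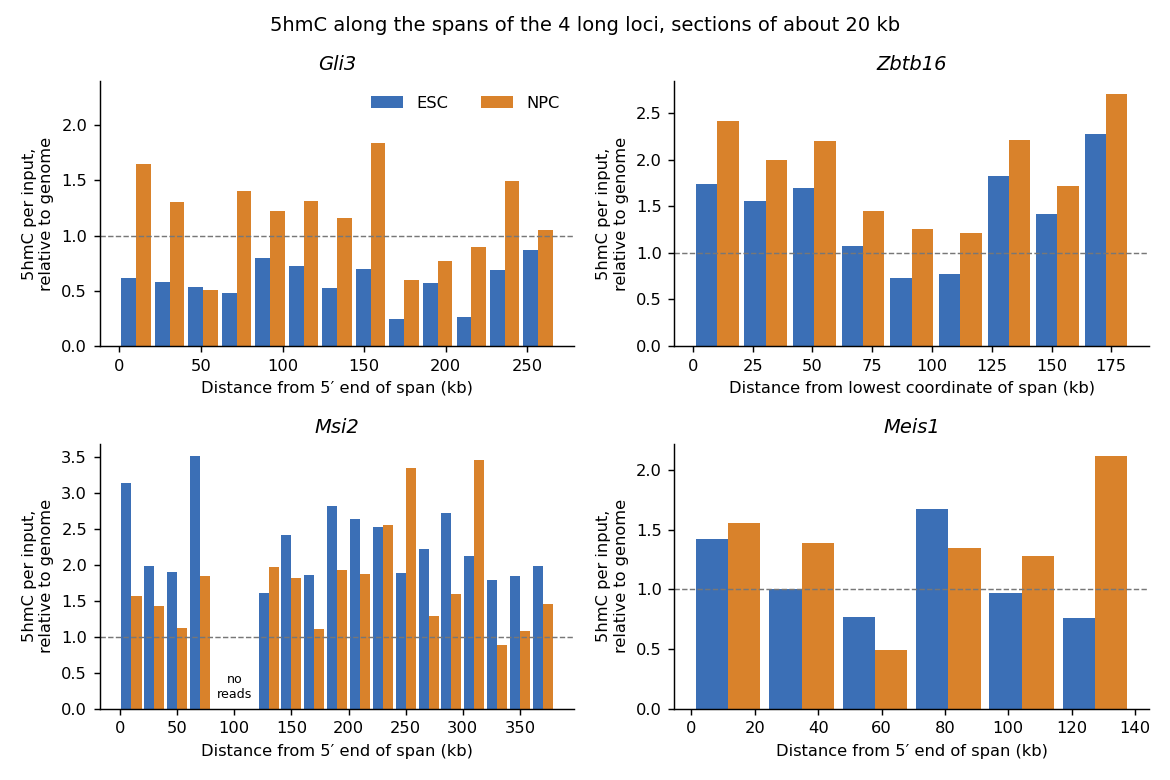
Level of 5hmC per input relative to the genome in consecutive sections of about 20 kb along the spans of the 4 long loci, against distance from the 5′ end (kb), or from the lowest coordinate for Zbtb16. Blue bars are ESC, orange bars are NPC and the dashed line is the genome average. Zbtb16 is low in the middle in both cell types, and Msi2 has NPC peaks at 250 kb and 310 kb. The gap in Msi2 is a stretch with no counted reads.

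Set side by side, the spans and flanks of the 8 loci gave no common pattern. In ESC the span was above its flanks beyond counting error at Pax6 and Meis1, and below at Sox1 and Zbtb16. In NPC it was above at Gli3, Zbtb16 and Meis1, and below at Sox1 and Otx2. These calls are against flanks of 20 kb, and those at Otx2, Gli3, Zbtb16 and Nes changed with 50 kb as given above. The NPC/ESC ratio of span and flanks differed beyond counting error, by the quotients given above, at Gli3 and Zbtb16, and was higher in the span at both. At Msi2 the quotient was 1.305 (0.889 to 1.92). The spans were taken from the rule that chose the loci and were not checked against an annotation of mm9. The Sox1 span starts within 0.319 kb of the gene's place in the GRCm38.p6 table, whereas the other spans differ from theirs by 91.3 kb to 620 kb, so the exact place of Sox1 within its locus on mm9 is uncertain.

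**Figure D5:**
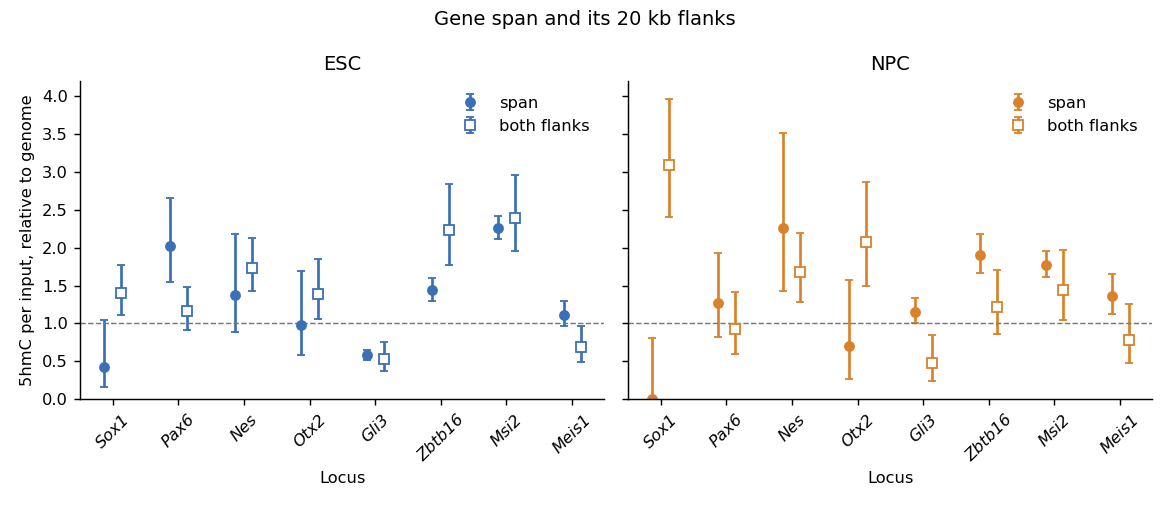
Level of 5hmC per input relative to the genome in the gene span (filled circles) and in both 20 kb flanks (open squares) of each locus, in ESC (left) and NPC (right). Bars are 95% counting intervals and the dashed line is the genome average. The Sox1 span lies below its flanks in both panels, and the Zbtb16 span lies below its flanks in ESC and above them in NPC.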

How the data were processed

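The deposited files list read intervals of 350 bp with a strand and the number of reads at each position, 1 file per library. These counts are whole numbers as the authors deposited them, with no normalisation. Reads were aligned with Bowtie 0.12.7 to mm9, per the submitters' processing notes; filters on quality and multiple matches: not given in the sources used here. From these files each position and strand was counted once (97.93% to 99.69% of positions had 1 read) and placed by the midpoint of its interval. Reads were summed per locus, per part and per 5 kb tile on chromosomes 1 to 19 and X. Tiles with under 5 summed input reads, or over 5 times the median of 23, were left out of tile counts. Levels and ratios used no pseudocount, and the enrichment rule used 0.5 reads. For NPC/ESC ratios and for quotients of 2 levels of the same cell type, 95% intervals are exact conditional intervals of the odds ratio. They are log-normal where a count passed 2000. Quotients of 2 NPC/ESC ratios, between loci or between span and flanks, have log-normal intervals at any count, an approximation where counts are low. Levels and shares have Clopper-Pearson intervals, for levels with the genome-wide value taken as fixed. PCR copies sharing a position were removed, but counting intervals still cover counting error only. No test was possible with 1 library per group. The 8 loci and every list were chosen with earlier results of these data known. All loci are named; the tiles named are, per locus, those with the highest ESC or NPC 5hmC per input and the highest or lowest ratio, among tiles with at least 20 5hmC reads and 5 reads in each input. As extremes they are descriptions, and other tiles named were chosen after their values were seen. Other neural genes were not analysed here, as no mm9 annotation was used. Calculations used scipy 1.17.1, pandas 2.3.3, numpy 2.4.6, matplotlib 3.10.9 and Python 3.11.15, and were tested on simulated data. Alternatives covered the reads counted, their placement, flanks, input, tile size, thresholds, background and depth.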

Additional observations from a re-analysis of the deposited data

Results flagged for a closer look

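At Zbtb16 the gene span stood on opposite sides of its flanks in the 2 cell types. For ESC, 5hmC per input of the span was 0.644 times that of the flanks (0.494 to 0.833). For NPC it was 1.57 times that of the flanks (1.09 to 2.28). With flanks of 50 kb the quotient was 0.938 in ESC (0.778 to 1.13), within counting error of 1, and 1.75 in NPC (1.35 to 2.29). The values with 20 kb flanks drew attention because the contrast of span with flanks goes in opposite directions in ESC and NPC. With 1 library in each group this difference was not tested.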

How the results depend on the processing

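The direction of all 8 NPC/ESC ratios, below 1, held under every alternative run, and over all alternatives 67 of 81 ratio values stayed within the counting interval of the main value. The exceptions follow. With the gene span alone the ratio was 0 for Sox1, 0.308 for Nes and 0.133 for Otx2, and the levels of Sox1 (0.426 in ESC, 0 in NPC) and Otx2 (0.983 and 0.696) crossed to values below 1. With flanks of 50 kb the ratio was 0.282 for Sox1 and 0.1506 for Otx2, the summed levels were 1.46 in ESC and 1.47 in NPC, the NPC quotient of span over flanks at Gli3 was 1.27, and the ESC quotient at Zbtb16 was 0.938. A background of 0.1445 reads per input, the NPC value of the tenth of tiles poorest in ESC 5hmC, was taken off both cell types. The ratio was then 0.0717 for Pax6, 0.212 for Gli3, 0.1598 for Zbtb16, 0.104 for Msi2, 0.141 for Meis1 and 0.133 for the sum. The genome-wide ratio was 0.0950. Sox1 (0.348), Nes (0.153) and Otx2 (0.1865) stayed within their main intervals, but these intervals were set beside the higher genome-wide ratio of the main analysis. Thinned to 1742680 reads per library, the Sox1 ratio was 0.2799 (0.158 to 0.493), and 1 tile was at least 2-fold higher in NPC of the 80 enriched in either (genome 2.91%). Without the tile with most NPC 5hmC reads of each locus, chosen after the data were seen, the ratio was 0.258 for Sox1 and 0.177 for the sum, and the summed NPC level was 1.42. A pseudocount of 5 reads left 4 tiles 2-fold below the ratio of the genome (4.12%, genome 14.6%) and 34 above (35.1%, genome 33.6%). A minimum of 20 5hmC reads left 10 tiles enriched in NPC (3.85%, genome 1.04%) and 8 above (10.5%, genome 6.55%). With tiles of 10 kb, of which 130 were measured, 32 were enriched in ESC (24.6%, genome 9.04%), 31 in NPC (23.8%, genome 7.12%) and 53 in either (40.8%, genome 14.2%). Of these 53, 48 were 2-fold lower in NPC (90.6%, genome 81.6%), 8 below the genome-wide ratio (15.1%, genome 33.7%) and 10 above (18.9%, genome 25.7%); there are fewer tiles by construction. The causes of the other changes were not tested. No paired analysis was possible because each group has 1 library, so the groups share fewer than 2 replicate numbers. Depth limits single tiles most: the NPC 5hmC library is the shallowest.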
